A study of Mus musculus with 2 samples.

Results

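The mitochondrial carriers are the protein-coding genes whose symbol is Slc25a followed by a number, and they were described in gastrocnemius, a fast muscle of the calf. Of 47 such genes in the mouse annotation, 42 had at least 1 count in either of 2 long-read RNA libraries, among 17859 genes counted in all. Replicate 1 held counts of 38 of them and replicate 2 of all 42, so 4 were counted in replicate 2 only. The muscles came from 4-day-old male mice of the hybrid B6CASTF1/J, a cross of C57BL/6J and CAST/EiJ, with no treatment and no engineered allele named in the labels. There is 1 group, and each replicate is 1 library made from 2 µg of total RNA. The labels name separate biosamples but a single donor entry, so the spread given over n = 2 may be technical or may be that between mice. Whole muscle holds nerve, fat, vessel and connective cells besides fibres, and in such bulk RNA fewer cells of a type and less RNA per cell cannot be told apart. Counts from the 2 parental alleles are summed.

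Mitochondrial carriers sit in the inner membrane of the mitochondrion and move nucleotides, phosphate, organic acids, amino acids and cofactors between the matrix and the cytosol. Most are built of repeats of a unit with a pair of membrane helices. All are encoded in the nucleus, and most lack a cleaved targeting sequence and are inserted by the TIM22 complex. In muscle the ADP/ATP carriers deliver ADP to ATP synthase and return ATP, the phosphate carrier supplies the other substrate, and the aspartate/glutamate and oxoglutarate carriers form the malate-aspartate shuttle, which brings reducing equivalents of glycolysis into the matrix. A pair of members lie elsewhere, Slc25a17 in peroxisomes and Slc25a46 in the outer mitochondrial membrane.

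Replicate 1 held 998659 counts on annotated mouse genes and replicate 2 held 1026257, so 1 count was worth 1.00 and 0.974 CPM, which is the count scaled to a library of 1000000 annotated gene counts. One read counts 1 transcript, so CPM was not divided by length, and the length of the leading transcript model is given where it bears on a value. The 6 muscle markers (Acta1, Ckm, Atp2a1, Mylpf, Tnnc2 and Ttn) were present in both libraries and summed to 139695 and 142357 CPM. The 5 epidermal markers (Krt1, Krt5, Krt10, Krt14 and Lor) summed to 4 counts in replicate 1, with 4 of the 5 at 0, and to 869 in replicate 2. The 4 Schwann cell markers summed to 1424 and 3543 counts, and 3 counted adipocyte markers to 125 and 302, with Ucp1 at 0. Fibroblast markers summed to 36749 and 25416 counts, most of them on Col1a1 (12494 and 6976) and Col3a1 (21692 and 15727). Dcn went the other way, at 814 and 969 counts, while Col1a2 held 1716 and 1715 and Pdgfra 33 and 29. Hepatocyte markers summed to 1 in each library.

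Carrier transcripts made up 0.788% of annotated gene counts in replicate 1 (7873 counts, exact 95% interval 0.771 to 0.806%) and 0.933% in replicate 2 (9580 counts, 0.915 to 0.952%). The mean was 0.861 ± 0.103% (SD, n = 2), and the intervals, which hold counting error only, did not overlap. The family was dominated by a few members. Slc25a4 alone held 64.8 ± 1.89% of carrier counts, the 3 highest members (Slc25a4, Slc25a5 and Slc25a3) 83.8 ± 2.05%, the 5 highest (with Slc25a11 and Slc25a12) 91.3 ± 0.570%, and the other 37 members 8.69 ± 0.570%. By mean level, 8 members reached 50 CPM, 18 lay from 10 to under 50 CPM and 16 were under 10 CPM. The median member stood at 22.7 CPM against 15.7 CPM over 14734 counted protein-coding genes, and 23 of the 42 were above that second value.

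**Figure D1:**
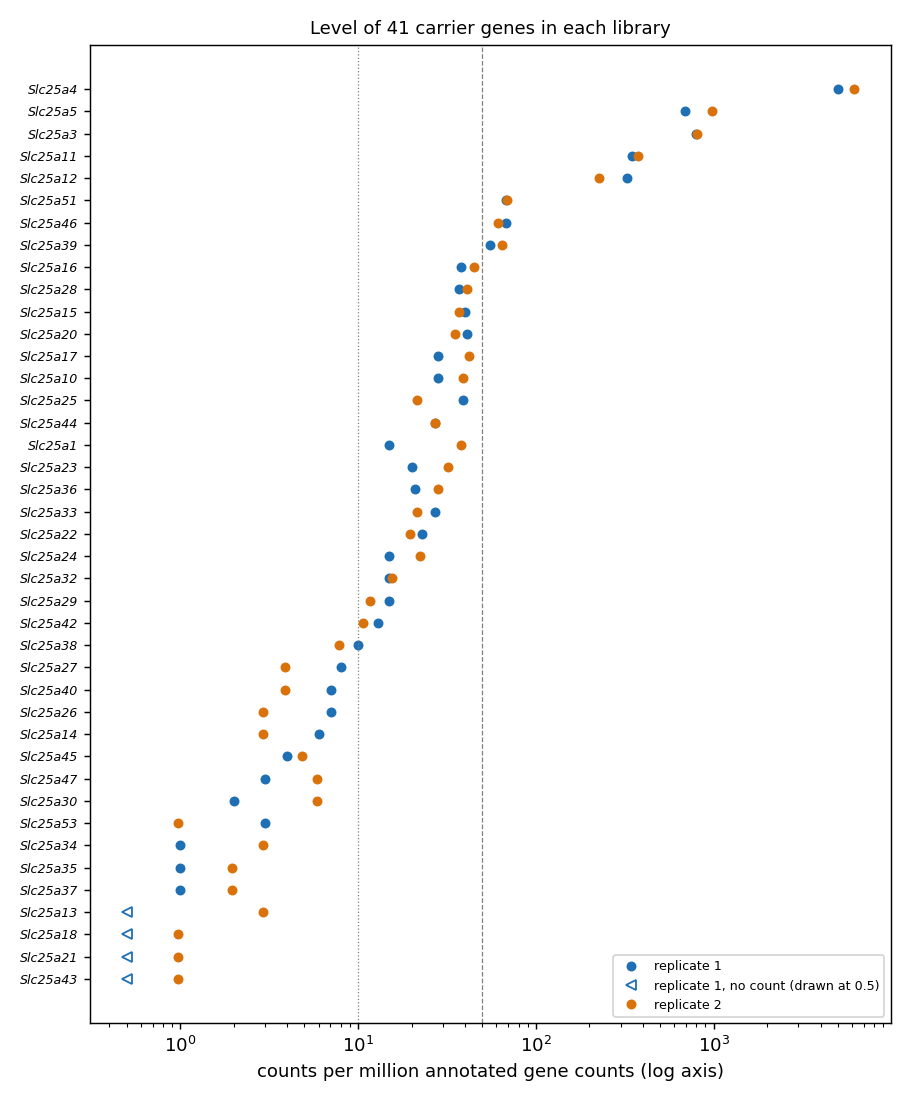
Level of 41 of the 42 counted carrier genes in replicate 1 (blue) and replicate 2 (orange), in CPM on a log axis; open triangles mark genes with no count in replicate 1, drawn at 0.5, and the lines mark 10 and 50 CPM. Slc25a4 stands apart from every other gene drawn in both libraries, and 4 members have no count in replicate 1.

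The ADP/ATP carriers exchange cytosolic ADP for ATP made in the matrix. Slc25a4, the form of heart and skeletal muscle, held 4998 counts in replicate 1 and 6338 in replicate 2, or 5005 and 6176 CPM (mean 5590 ± 828). It ranked 13 among all protein-coding genes by mean level. Slc25a5, the form of many growing tissues, held 693 and 1003 counts (836 ± 200 CPM). In both libraries Slc25a4 was far above Slc25a5, with ratios of 7.21 and 6.32. Of the counts on both genes, Slc25a4 held 87.8% in replicate 1 (exact 95% interval 86.9 to 88.7%) and 86.3% in replicate 2 (85.5 to 87.1%). These intervals overlapped. Slc25a31, the form of male germ cells, had no count in either library, and the germ cell markers Ddx4 and Dazl summed to 2 and 0 counts. A count of 0 allows up to 3 counts, or 3.00 and 2.92 CPM here.

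Slc25a4 (GENCODE M21 ENSMUSG00000031633.4) lies on chromosome 8 from 46206797 to 46211284 on the minus strand of mm10, and Slc25a5 (ENSMUSG00000016319.3) on chromosome X from 36795651 to 36798807 on the plus strand. Their annotated coding sequences are each 897 bases long, with 695 bases identical (77.5%), which leaves 202 differences along the coding part of a read. The coding part of exon 1, 111 bases in each gene, shows how they differ. Capitals mark the 25 bases that differ between the genes.
Slc25a4, chr8:46210812-46210922, minus strand: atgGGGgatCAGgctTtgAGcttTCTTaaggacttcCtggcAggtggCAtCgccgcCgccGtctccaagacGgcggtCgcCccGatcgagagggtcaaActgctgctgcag
Slc25a5, chrX:36795731-36795841, plus strand: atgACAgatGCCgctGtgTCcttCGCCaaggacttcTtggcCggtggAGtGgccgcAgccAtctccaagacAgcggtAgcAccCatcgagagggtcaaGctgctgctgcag
The processed pseudogene Slc25a5-ps held 0 and 2 counts, and adding them to Slc25a5 left the Slc25a4 share at 87.1%. A larger part of the counts of both genes lay on partial models. In Slc25a4 a single-exon model held 682 counts in replicate 1 (453 bases) and another 601 in replicate 2 (475 bases), or 13.6 and 9.48% of the gene. In Slc25a5 the full-length classes, annotated models and new combinations of spliced exons, held 434 of 693 counts (62.6%) and 551 of 1003 (54.9%). Most of the rest lay on a different single-exon model in each library, one of 3154 bases that spans the gene in replicate 1 (257 counts, labelled genomic) and one of 421 bases at the 3′ end in replicate 2 (447 counts, labelled as part of an annotated chain). On full-length classes alone the Slc25a4 share was 91.0%, and Slc25a5 stood at 556 CPM, below Slc25a3.

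Slc25a3, the phosphate carrier, brings inorganic phosphate into the matrix with protons and can also carry copper. It held 793 and 827 counts, or 794 and 806 CPM (800 ± 8.33), with 97.1 and 97.3% of them full-length. Its log2 ratio between the libraries was 0.02 (adjusted p = 0.955, two-sided Fisher's exact test over all genes). It was above Slc25a5 in replicate 1 and below it in replicate 2, so the order of the pair is not fixed by these data. The gene (ENSMUSG00000061904.12) lies on chromosome 10 from 91116574 to 91124059 on the minus strand. Its transcripts carry either of 2 neighbouring coding exons, known from other work as the muscle and heart form (here exon A, in the annotated transcript Slc25a3-206) and the ubiquitous form (exon B, in Slc25a3-201). Exon A is 125 bases and exon B 122 bases long, with an intervening stretch of 163 bases, and the difference of 3 bases keeps the reading frame. The exons align with 80 identical bases, and capitals mark the bases that differ or are unpaired.
exon A, chr10:91122207-91122331, minus strand: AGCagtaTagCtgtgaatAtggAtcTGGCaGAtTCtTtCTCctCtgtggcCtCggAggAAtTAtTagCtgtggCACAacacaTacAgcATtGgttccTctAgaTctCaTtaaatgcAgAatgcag
exon B, chr10:91121922-91122043, minus strand: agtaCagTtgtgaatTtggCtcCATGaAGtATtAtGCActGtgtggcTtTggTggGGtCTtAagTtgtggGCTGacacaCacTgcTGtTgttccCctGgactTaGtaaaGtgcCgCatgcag

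Counts on models with exon A were 633 of the 759 that held A or B in replicate 1, or 83.4% (exact 95% interval 80.6 to 86.0%). In replicate 2 they were 638 of 792, or 80.6% (77.6 to 83.3%). The mean was 82.0 ± 2.01% (SD, n = 2), so exon A was the main form in both libraries and exon B was carried by 126 and 154 counts. No count carried both exons, and 1 and 4 counts passed over both. The inclusion of exon A did not differ past the threshold between the libraries (two-sided Fisher's exact test with Benjamini-Hochberg adjustment over 16789 internal exons, unadjusted p = 0.0888, adjusted p = 1), nor did that of exon B (unadjusted p = 0.166, adjusted p = 1). The same search over all carriers, for pairs of internal exons that share flanking splice sites and hold at least 20 counts each, found 1 other pair, in Slc25a46, and there 113 counts had both exons.

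**Figure D2:**
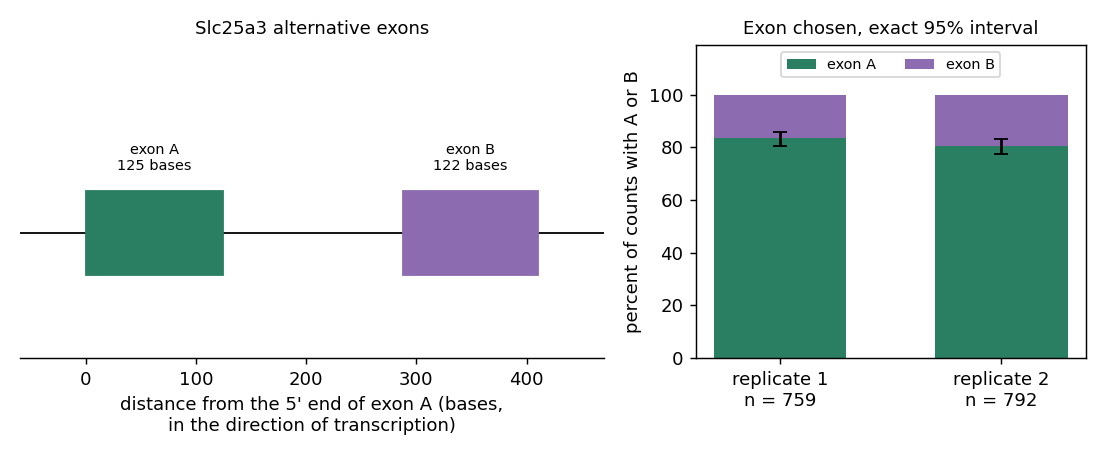
Left, exon A and exon B of Slc25a3 drawn to scale by distance in bases from the 5′ end of exon A; right, percent of counts with exon A (green) and exon B (purple) among counts with either, per library, with the exact 95% interval of the exon A share. Exon A holds 83.4% and 80.6%, with overlapping intervals.

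Carriers of the malate-aspartate shuttle and of glutamate followed in level. Slc25a11, the oxoglutarate/malate carrier, held 348 and 386 counts (362 ± 19.6 CPM). Slc25a12, the calcium-sensing aspartate/glutamate carrier also called aralar, held 325 and 232 counts (276 ± 70.3 CPM). Slc25a11 was above Slc25a12 in both libraries, narrowly in replicate 1 (ratio of Slc25a12 to Slc25a11 0.934) and more widely in replicate 2 (0.601). The paralogue Slc25a13, or citrin, the form of liver, had 0 and 3 counts, which made Slc25a12 100% (98.9 to 100%) and 98.7% (96.3 to 99.7%) of the aspartate/glutamate carrier counts. Slc25a22, a glutamate carrier, had 23 and 20 counts and its paralogue Slc25a18 had 0 and 1.

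For several other substrates too, 1 of a pair of related genes was far above the other. Slc25a28, one of the mitoferrins that bring iron to the matrix, held 37 of 38 and 42 of 44 mitoferrin counts, 97.4% (86.2 to 99.9%) and 95.5% (84.5 to 99.4%). The rest fell to Slc25a37, the mitoferrin of red cell precursors, at 1 and 2 counts, while the erythroid markers summed to 258 and 412 counts. Slc25a39, a glutathione carrier, held 55 of 62 and 66 of 70 counts, 88.7% and 94.3%, beside its paralogue Slc25a40. The pyrimidine nucleotide carriers were closer to each other, with Slc25a36 at 21 and 29 counts and Slc25a33 at 27 and 22, so that their order changed between the libraries. The calcium-regulated ATP-Mg/phosphate carriers, which change the size of the adenine nucleotide pool, also lacked a stable leader. Slc25a25 held 39 of their 74 counts in replicate 1 (52.7%, 40.7 to 64.4%) and 22 of 78 in replicate 2 (28.2%, 18.6 to 39.5%). These intervals did not overlap. Slc25a23 had 20 and 33 counts and Slc25a24 had 15 and 23. Most Slc25a23 counts lay on partial models, and on full-length classes alone its mean level was 6.18 CPM against 26.1 over all classes. Counted on those classes, Slc25a25 held 38 of 52 counts in replicate 1 (73.1%, 59.0 to 84.4%) and 18 of 45 in replicate 2 (40%, 25.7 to 55.7%), where Slc25a24 held 19.

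The remaining transporters of fuels and amino acids were lower than Slc25a11 and Slc25a12. Slc25a20, which brings acylcarnitines in for fatty acid oxidation, held 41 and 36 counts (38.1 ± 4.23 CPM). Slc25a10, the dicarboxylate carrier, held 28 and 40 counts (33.5 ± 7.74 CPM), and Slc25a1, which exports citrate, 15 and 39 (26.5 ± 16.3 CPM). Slc25a15, the ornithine carrier, was the highest of the carriers of basic and branched-chain amino acids, at 40 and 38 counts (38.5 ± 2.14 CPM). Slc25a44, a branched-chain amino acid carrier, had 27 and 28 counts, of which 22 and 18 were on full-length classes. In replicate 2, 7 of the Slc25a44 counts lay on a single-exon model of 2 bases. Slc25a29, a carrier of basic amino acids, had 15 and 12. All of these were below 50 CPM on the mean, against 362 CPM for Slc25a11. All but Slc25a29 were above the median of 15.7 CPM over counted protein-coding genes.

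The carriers of coenzymes and nucleotides were the group with the most members, all 9 of them counted, and they held 3.14% of carrier counts in replicate 1 (2.76 to 3.55%) and 2.94% in replicate 2 (2.61 to 3.30%). Slc25a51, which imports NAD, was the highest at 68 and 71 counts (68.6 ± 0.772 CPM). The other 8 ranged from 4.97 CPM for Slc25a26, the S-adenosylmethionine carrier, to 41.4 CPM for Slc25a16. Slc25a39 led the iron, haem and glutathione group at 59.7 ± 6.53 CPM, and Slc25a46, an outer membrane protein of mitochondrial dynamics, stood at 68 and 63 counts (64.7 ± 4.74 CPM). Slc25a51, Slc25a46 and Slc25a39 changed order between the libraries, and in replicate 2 they held 71, 63 and 66 counts. The relatives of the uncoupling proteins, Slc25a27, Slc25a14 and Slc25a30, summed to 16 and 13 counts, with Slc25a27 the highest at 8 and 4. The 6 counted members of other or unassigned substrate summed to 12 and 18 counts, led on the mean by Slc25a45 at 4 and 5. Slc25a18, Slc25a21 and Slc25a43 had 1 count each, in replicate 2. Slc25a2, Slc25a31, Slc25a41, Slc25a48 and Slc25a54 had none in either library.

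**Figure D3:**
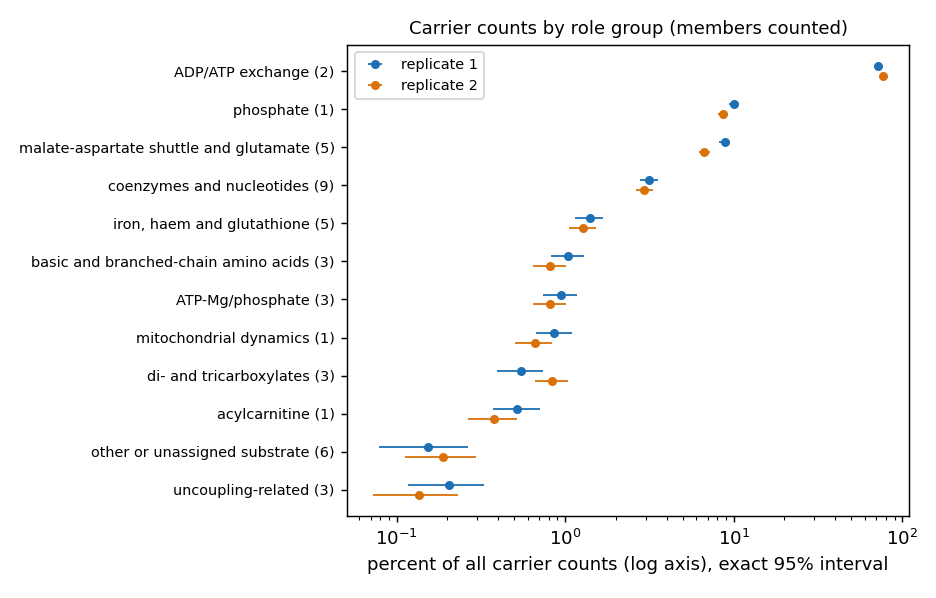
Percent of all carrier counts held by each role group, on a log axis, in replicate 1 (blue) and replicate 2 (orange), with exact 95% intervals and the number of counted members in parentheses. ADP/ATP exchange holds 72.3% and 76.6%, and the phosphate carrier 10.1% and 8.63%.

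By role, ADP/ATP exchange held 72.3% of carrier counts in replicate 1 (71.3 to 73.3%) and 76.6% in replicate 2 (75.8 to 77.5%). The shuttle and glutamate carriers held 8.84% (8.22 to 9.49%) and 6.70% (6.21 to 7.22%). The phosphate group, which is Slc25a3, held 10.1% (9.42 to 10.8%) and 8.63% (8.08 to 9.21%). The intervals of each of these groups did not overlap between the libraries, and those of every other role group did. Since the shares sum to the whole, they are not independent. In CPM, ADP/ATP exchange stood at 5699 in replicate 1 and 7153 in replicate 2, and the shuttle and glutamate carriers at 697 and 626. Slc25a3 stood at 794 and 806 CPM, so its share fell while its level did not. Measured instead against Atp5b, the catalytic subunit of ATP synthase (4051 and 4019 counts), the count of Slc25a4 was 1.23 and 1.58 times as high and that of Slc25a3 was 0.196 and 0.206 times as high.

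The libraries were then compared gene by gene, which sets 1 library against another and not conditions. Of the 42 members, 30 had the 10 counts in sum that the test needs and 12 did not. At an adjusted p under 0.05, 4 of the 30 were called (13.3%), against 9.74% of all 11027 genes tested. Of these, 3 were higher in replicate 2 (5.25% of all genes were) and 1 was lower (4.49% of all genes). Slc25a4 was higher in replicate 2 by 0.30 on the log2 scale (95% interval 0.25 to 0.36, adjusted p = 1.85e-26, two-sided Fisher's exact test with Benjamini-Hochberg adjustment over all genes tested). Slc25a5 was higher by 0.49 (0.35 to 0.64, adjusted p = 3.06e-10 by the same exact test). Slc25a1, from 15 to 39 counts, was higher by 1.31 (0.45 to 2.30, adjusted p = 0.0216, same exact test). Slc25a12 was the member called lower, at -0.52 (95% interval -0.77 to -0.28, adjusted p = 0.000653, same exact test). Slc25a25 was lower at -0.85, but its adjusted p by the same exact test was 0.168. No further member passed. Fisher's exact test holds counting error only, and with a preset biological coefficient of variation of 0.1 between libraries edgeR's exact test called 0 of the 30 (3 at an unadjusted p under 0.05). Counted on full-length classes alone, Slc25a1 no longer passed (adjusted p = 0.123, Fisher's exact test). On the same classes Slc25a5 was still called, but at 0.30 instead of 0.49 (adjusted p = 0.0151, same exact test). Slc25a4 stood there at 0.37 (adjusted p = 3.56e-35) and Slc25a12 at -0.49 (adjusted p = 0.00431, same exact test for each). Of the 30 tested, 17 lay above 0 and 13 below, with a median log2 ratio of 0.02 against -0.04 over all genes tested.

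**Figure D4:**
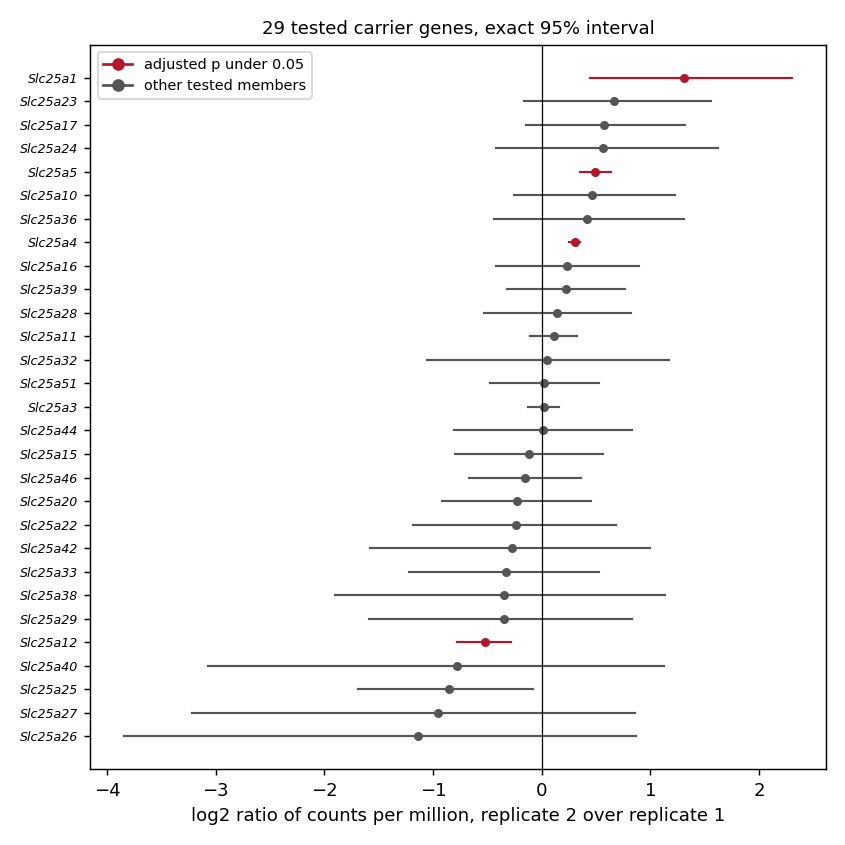
Log2 ratio of CPM, replicate 2 over replicate 1, for 29 of the 30 tested carriers, with exact 95% intervals of counting error; red marks an adjusted p under 0.05. Slc25a1, Slc25a5 and Slc25a4 lie above 0 and Slc25a12 below.

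Transcript length moved with the library ratio over all genes. Genes whose leading model was at most 1000 bases had a median log2 ratio of 0.43 and those above 4000 bases -0.27, and Spearman's rho between length and ratio was -0.40 over 10898 genes and -0.16 over the 30 carriers, given as a description. Among the called carriers, Slc25a5 has a leading model of 1240 bases, Slc25a1 of 1666 and Slc25a4 of 1925, where all genes of like length had medians of 0.35, 0.19 and 0.19. Slc25a12 has one of 6351 bases, in the class with the median of -0.27. With each gene set against the median of its length class, a comparison chosen after seeing the data, Slc25a4 was still called (0.11, adjusted p = 0.00186, exact binomial test), and Slc25a5 (adjusted p = 0.322), Slc25a1 (0.113) and Slc25a12 (0.29) were not. Slc25a3 was then called lower, at -0.33 (adjusted p = 0.000227, same exact test). The class of Slc25a4 rests on the 1925 bases of its annotated model. Unannotated models of Slc25a4 with 4 exons and few counts were 1296 and 1316 bases long. The class median at that length was 0.35, above the 0.30 of Slc25a4, and Slc25a4 was not tested against that class. The class of Slc25a12 likewise rests on the 6351 bases of its annotated model. Partial models of its last exons had their 3′ ends at 71274269 in replicate 1 and 71274267 in replicate 2. These lie inside the annotated gene, which runs to 71271063, and Slc25a12 was not tested against a shorter class. Among the cell type markers, the epidermal, Schwann, adipocyte and erythroid sums were also higher in replicate 2. So were the endothelial sum (332 and 396 counts) and the leukocyte sum (100 and 121). Within these lists Pecam1 (77 and 70 counts), Cdh5 (41 and 32) and Hbb-bt (15 and 14) went the other way. Of the 6 muscle markers, 4 were called higher there (log2 ratios of 0.51 for Tnnc2, 0.32 for Acta1, 0.30 for Mylpf and 0.23 for Ckm), Atp2a1 was called lower at -0.84, and Ttn was not called. The part of these markers in the carrier differences was not tested.

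**Figure D5:**
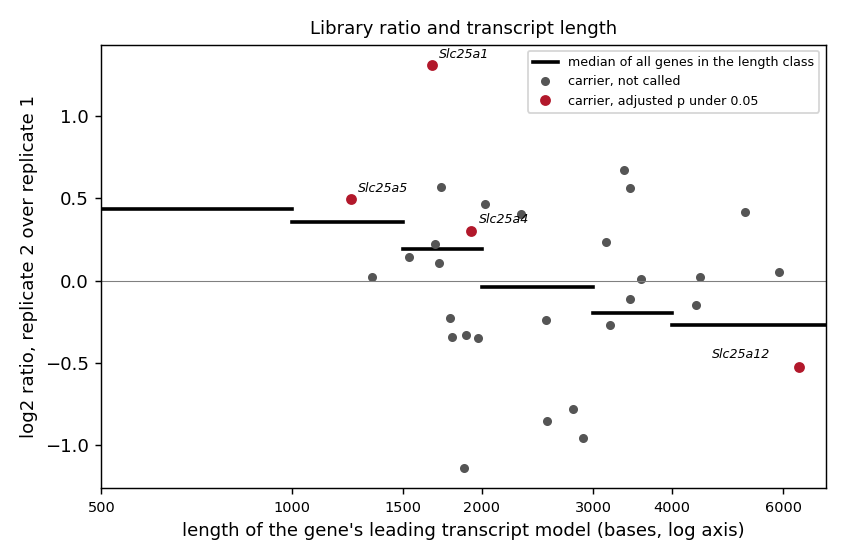
Log2 ratio, replicate 2 over replicate 1, of the 30 tested carriers against the length of the leading transcript model in bases on a log axis; black bars give the median ratio of all genes in each length class, 0.43 in the shortest and -0.27 in the longest. Slc25a1, Slc25a5 and Slc25a4 lie above their class median and Slc25a12 below.

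Other proteins that work beside the carriers were taken from lists of related genes. Ucp3, the uncoupling protein of skeletal muscle, held 58 and 30 counts and was called lower in replicate 2 (-0.98 on the log2 scale, adjusted p = 0.0248, two-sided Fisher's exact test as above). Ucp2 held 62 and 68 counts and Ucp1, the form of brown fat, had none. Of the pyruvate carrier subunits, Mpc1 was called higher in replicate 2, at 114 and 167 counts (adjusted p = 0.0388, same exact test) and Mpc2 held 80 and 97. Among 7 partners in ATP synthesis and energy transfer, 3 were called higher (Ckm, Vdac2 and Vdac3) and 1 lower (Atp5a1), where 5.25% of all genes tested were called higher and 4.49% lower. Of 9 genes for the import of carriers into the inner membrane, none was called by Fisher's exact test, against 9.74% of all genes tested. At an unadjusted p under 0.05 by that test there was 1 (Timm29, 163 and 133 counts), against 2319 of all 11027 genes. The calcium uniporter itself, Mcu, stood at 29.2 ± 5.45 CPM and Mcub had no count.

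Full-length classes held 85.9% and 86.9% of all carrier counts, against 87.3% and 87.4% over annotated genes. In 21 members with at least 20 counts in each library the median full-length share was 95% and 90.2% (91.5% and 90.9% over 6147 genes at that depth). The lowest was Slc25a23, with 15% and 24.2%, where 10 of 20 and 20 of 33 counts lay on a model that holds the first 9 exons and ends at 57047051 on chromosome 17. In Slc25a12 22 and 14 counts, 6.77% and 6.03% of the gene, lay on a model of its last 6 exons. The leading transcript was tested in 16 members with at least 20 full-length counts in each library, and none of the 16 was called between the libraries (0 at an unadjusted p under 0.05, exact test), against 24 of 5351 genes (0.449%). In all 16 that leading transcript was annotated, whereas 258 of 5351 genes (4.82%) led with an unannotated one. Slc25a4-201 held 99.7% of full-length counts of its gene in both libraries. Slc25a12-206, with 18 exons, held 98.6% and 96.6%, and Slc25a11-201 96.2% and 95.2%. Slc25a3-206, with exon A, held 79.0% and 75.3%. The lowest was Slc25a28-201, at 66.7% and 64.1%. Of 35 internal exons tested in 11 members, none was called (1 at an unadjusted p under 0.05, Fisher's exact test), against 7 of 16789 exons (0.0417%). That one was a 57-base exon of Slc25a46, included in 66 of 67 and 53 of 61 counts.

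Full-length models outside the annotation were counted in 35 of the 42 members. There were 190 of them, and 37 were in both libraries, in 17 genes. In Slc25a28 a single such model, with 3 exons, held 9 of 36 and 10 of 39 counts. It keeps the intron of 1086 bases from 43665829 to 43666914 on chromosome 19, which was retained in 12 of 36 (33.3%, 18.6 to 51.0%) and 13 of 38 counts (34.2%, 19.6 to 51.4%). The shares were close in the libraries. In Slc25a15 an unannotated model with 7 exons held 5 of 38 and 7 of 35 counts. With 10 counts in each library as the minimum, Slc25a22 also entered, and its leading model over both libraries in sum was unannotated, at 6 of 22 and 2 of 17 counts; in replicate 2 the annotated Slc25a22-201 held more, 3 of 17.

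Slc25a25 used several first exons. The gene (ENSMUSG00000026819.15) has several annotated first exons, each with its own start codon, which give the protein different ends on the N-terminal side. The exon of Slc25a25-203 held 23 of 38 full-length counts in replicate 1 (60.5%, 43.4 to 76.0%) and 4 of 18 in replicate 2 (22.2%, 6.41 to 47.6%). The exon of Slc25a25-205 held 13 of 38 (34.2%) and 10 of 18 (55.6%), and that of Slc25a25-204 1 and 4 counts. The most used first exon was that of Slc25a25-203 in replicate 1 and that of Slc25a25-205 in replicate 2, with overlapping intervals for each. At this depth the share of Slc25a25-203 did not differ past the threshold (unadjusted p = 0.0102, adjusted p = 0.671, two-sided Fisher's exact test at the minimum of 10 counts). The coding parts of these exons are given since they share no start, with the start codon in capitals.
Slc25a25-203, chr2:32423794-32423952, minus strand: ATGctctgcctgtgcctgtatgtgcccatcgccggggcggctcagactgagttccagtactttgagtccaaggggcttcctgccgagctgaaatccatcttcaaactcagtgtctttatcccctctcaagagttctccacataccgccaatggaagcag
Slc25a25-205, chr2:32451067-32451324, minus strand: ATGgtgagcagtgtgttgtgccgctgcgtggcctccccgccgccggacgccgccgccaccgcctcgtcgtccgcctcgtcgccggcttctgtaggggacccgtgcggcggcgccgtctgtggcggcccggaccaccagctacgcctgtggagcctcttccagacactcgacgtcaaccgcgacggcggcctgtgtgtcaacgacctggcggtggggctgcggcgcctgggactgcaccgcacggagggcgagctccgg
Slc25a25-204, chr2:32430529-32430747, minus strand: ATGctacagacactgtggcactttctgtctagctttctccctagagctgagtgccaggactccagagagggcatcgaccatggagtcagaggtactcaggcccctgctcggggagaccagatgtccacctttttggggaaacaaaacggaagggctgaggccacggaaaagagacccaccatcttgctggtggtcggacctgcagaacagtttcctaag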

How the data were processed

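Long-read RNA sequencing of whole gastrocnemius gave 1 library per replicate. The authors deposited, per library, a raw count of reads for each transcript model with its class, and the model coordinates on mm10 with GENCODE M21 names, per the file headers and the labels. Which aligner was used is not given in the sources used here. Counts were summed per gene over all classes, without spike-ins and unannotated loci, and scaled to CPM. Unannotated models were matched between libraries by intron chain. Intervals are exact Clopper-Pearson intervals and hold counting error only; reads without molecular identifiers are not independent molecules. The group itself was not tested: an exact sign-flip permutation over 2 replicates has 0.5 as its smallest two-sided p. Libraries were compared by two-sided Fisher's exact test in scipy 1.17.1 for genes whose 2 counts added to 10 or more, with p-values adjusted by Benjamini-Hochberg across every gene, transcript or exon tested (threshold 0.05), and log2 ratios used a prior count of 0.5. The code was tested on simulated data. Alternatives used TMM and exact tests from edgeR 4.0.16, size factors from DESeq2 1.42.0, other minimums and narrower classes. Members reaching 50 CPM, the highest of each role group, called members and those with an unannotated leading transcript were named in full; the other models and members singled out were chosen after their values were seen. Members and lists were chosen with earlier results of these data known. Sequences come from GENCODE M21 transcripts. The values of 1 member are not reported here.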

Additional observations from a re-analysis of the deposited data

Results flagged for a closer look

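Unannotated loci over a carrier on the opposite strand held more than the 3 counts that a count of 0 allows at 5 members, in data that the comparisons above do not use. At Slc25a46 they summed to 7 counts in replicate 1 and 27 in replicate 2, while the gene itself had 68 and 63. At Slc25a36 they held 8 in each library, at Slc25a12 they held 4 and 8, at Slc25a17 6 in replicate 2, and at Slc25a16 4 in replicate 1. On the same strand, the highest such sum over any carrier was 1 count.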

How the results depend on the processing

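No paired analysis was possible because there is a single group of 2 replicates. Of the alternative values for the main results, 31 stayed within 1 SD of the replicates (shares) or within 1.5 times (counts) and 10 did not. Leaving out 1 of 2 replicates always moves a mean by less than 1 SD, so the shares from that alternative could only count as stable. A reversal was not defined for these shares and counts. With annotated models only, the carrier share was 0.981% and the full-length share 84.3%. The Slc25a4 share of ADP/ATP carrier counts was 91.0% on full-length classes and 91.1% on annotated models. At a preset biological coefficient of variation of 0.1 and 0.2 in edgeR's exact test, 172 and 56 genes were called instead of 1074, and 0 carriers at each, with 3 and 1 at an unadjusted p under 0.05. Against length classes, 607 of 10898 genes and 2 of 30 carriers were called. Slc25a1 was also lost on full-length classes (adjusted p = 0.123, Fisher's exact test). TMM, size factors and minimums of 1 and 50 counts kept the 4 carriers called. Leaving out each replicate gave carrier shares of 0.788 to 0.933%, Slc25a4 shares of 86.3 to 87.8% and exon A shares of 80.6 to 83.4%. Depth limits the lower members: 12 were too low to test, and a single count is about 1 CPM.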
